A study of Mus musculus with 8 samples.

Results

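The genes described here are 4 keratins of simple epithelia (Krt7, Krt8, Krt18 and Krt19) and 6 desmosome genes (Dsp, Dsg2, Dsc2, Dsc3, Pkp2 and Jup), taken by gene symbol from a table of 18257 genes. All 10 were in the table, and 9 passed the filter on low counts that left 12936 genes to test. Dsc3 did not pass it. The samples are polyadenylated RNA of wild-type mouse morulae, from 4 pools kept in KSOM medium with 2 µM A485, a compound that blocks histone acetylation by p300 and CBP, here dissolved in DMSO, and from 4 pools kept in the same medium with 0.1% DMSO. Exposure began at the 4-cell stage in both groups. Each library pooled 3 embryos freed of the zona pellucida, and its RNA was copied and preamplified before sequencing. The protocol describes culture up to the blastocyst, whereas the samples themselves carry the label morula.

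Keratins are the intermediate filament proteins of epithelia. An acidic type I chain (Krt18, Krt19) always assembles with a basic type II chain (Krt7, Krt8), and the filaments are anchored at desmosomes, where cadherins of the desmoglein (Dsg) and desmocollin (Dsc) families join neighbouring cells. Inside the cell, plakoglobin (Jup) and plakophilins (Pkp) bind the cadherin tails, and desmoplakin (Dsp) ties this plaque to the keratin filaments. In the mouse embryo the Krt8 and Krt18 chains are among the earliest intermediate filament proteins made, and the trophectoderm, the outer epithelium of the blastocyst, builds both keratin filaments and desmosomes.

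Total counts lay between 23641779 and 25677692 per library, and 7077 of the tested genes (54.7%) passed an adjusted p of 0.05 in edgeR's quasi-likelihood test. Libraries of the A485 group differed more among themselves than control libraries did: A485 replicate 1 was the A485 library closest to the controls for 53.6% of 6324 called genes whose groups did not overlap, and A485 replicate 3 was the farthest for 46.5%. Values per library are TMM-scaled CPM, a count as a share of its library total. TMM factors take most genes as unmoved. No added RNA standard is described, so all levels are relative to the other messages of a library, and in pools of whole embryos fewer cells of a type and less RNA per cell cannot be told apart. Scaling by total counts raised the median log2 fold change of all tested genes to 0.37, against 0.09 with TMM factors, and the share of calls that were higher to 68.2%, against 54.2%. Defining marker genes were read in each library. Whether the morula label or the blastocyst of the protocol holds was not tested with them. Pou5f1, a pluripotency factor, lay between 239 and 335 TPM, a level that allows for transcript length, in A485 libraries and between 589 and 761 TPM in control libraries. Nanog lay at 10.1 to 29.4 TPM in A485 libraries and 96.5 to 214 TPM in control libraries, and Cdx2, a trophectoderm factor, at 0.23 to 1.65 TPM in A485 libraries and 19.8 to 29.8 TPM in control libraries.

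Of the 9 tested keratin and desmosome genes, 7 rose with A485 and 0 fell, where 29.7% of all tested genes rose and 25.0% fell. Krt7, Krt8, Krt18, Krt19, Dsp, Dsc2 and Jup rose; Pkp2 and Dsg2 did not pass the test. The median log2 fold change of the 9 was 1.71, and that of all tested genes 0.09. Krt19 passed the filter through the A485 libraries, since 3 control libraries were at or above its cutoff of 0.403 CPM and 4 were needed. The other 8 tested genes were above the cutoff in all 4 control libraries. In 6 of the 9 (Krt7, Krt8, Krt18, Krt19, Dsp and Jup) every A485 library lay above every control library, an arrangement found with A485 higher for 26.9% of all tested genes and in either direction for 51.5%.

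**Figure D1:**
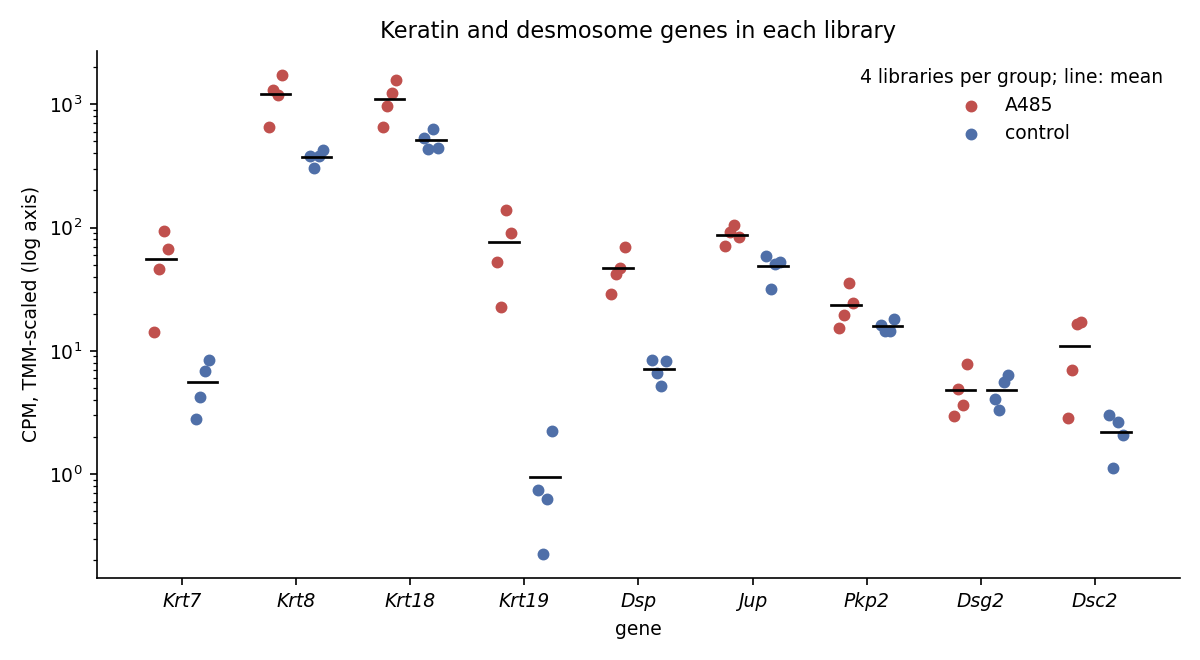
TMM-scaled CPM (log axis) of the 9 tested genes, with 1 point per library, A485 left of control, and a line at each group mean (4 libraries per group). Krt19 lies between 22.6 and 138 CPM in A485 libraries and between 0.226 and 2.23 CPM in control libraries, whereas the groups of Dsg2 overlap.

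Krt8 and Krt18 were the most abundant keratins of both groups. Krt8, the type II chain of the earliest embryonic filaments, measured 656, 1292, 1186 and 1734 CPM in A485 replicates 1 to 4, and 380.2, 304, 379.7 and 427 CPM in control replicates 1 to 4. Every A485 library was above every control library, A485 replicate 1 least so. The change was 3.26-fold (log2 fold change 1.71 ± 0.26, SE; n = 4 per group; edgeR adjusted p = 0.000402). Krt18, its usual type I partner, measured 649, 965, 1241 and 1570.5 CPM in A485 libraries and 529, 435, 627 and 439.9 CPM in control libraries. The groups did not overlap, but A485 replicate 1 stood close to control replicate 3. Krt18 rose 2.18-fold (log2 fold change 1.12 ± 0.25; edgeR adjusted p = 0.00368). Per transcript length, Krt18 averaged 1084 ± 412 TPM in A485 libraries and 396 ± 85.5 TPM in control libraries (SD, n = 4 each), and Krt8 averaged 893 ± 340 TPM in A485 libraries and 217 ± 31.9 TPM in control libraries. The ranges of these 2 genes overlapped in the A485 group and did not overlap in the control group.

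Krt7 and Krt19, chains that many simple epithelia add to the Krt8 and Krt18 filament, were scarce in control embryos and had larger fold changes. Krt7, type II, measured 14.2, 45.7, 93.2 and 67.0 CPM in A485 libraries and 2.82, 4.24, 6.88 and 8.35 CPM in control libraries. A485 replicate 3 was the highest, and A485 replicate 1 was well below the other 3 A485 libraries. Krt7 rose 9.87-fold (log2 fold change 3.30 ± 0.57; edgeR adjusted p = 0.00108). Krt19, type I, measured 52.9, 22.6, 138 and 90.2 CPM in A485 libraries and 0.749, 0.226, 0.625 and 2.23 CPM in control libraries, the last from 17, 5, 15 and 48 counts. All 4 A485 libraries were far above the controls, and A485 replicate 2 was the lowest of them. Its log2 fold change was 6.31 ± 0.80 (79.4-fold, edgeR adjusted p = 0.000285). Without control replicate 4, which held 48 of the 85 control counts, the Krt19 log2 fold change was 7.12. Krt19 was above 91.2% of all genes in mean TPM with A485 and above 49.5% of them in control embryos.

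**Figure D2:**
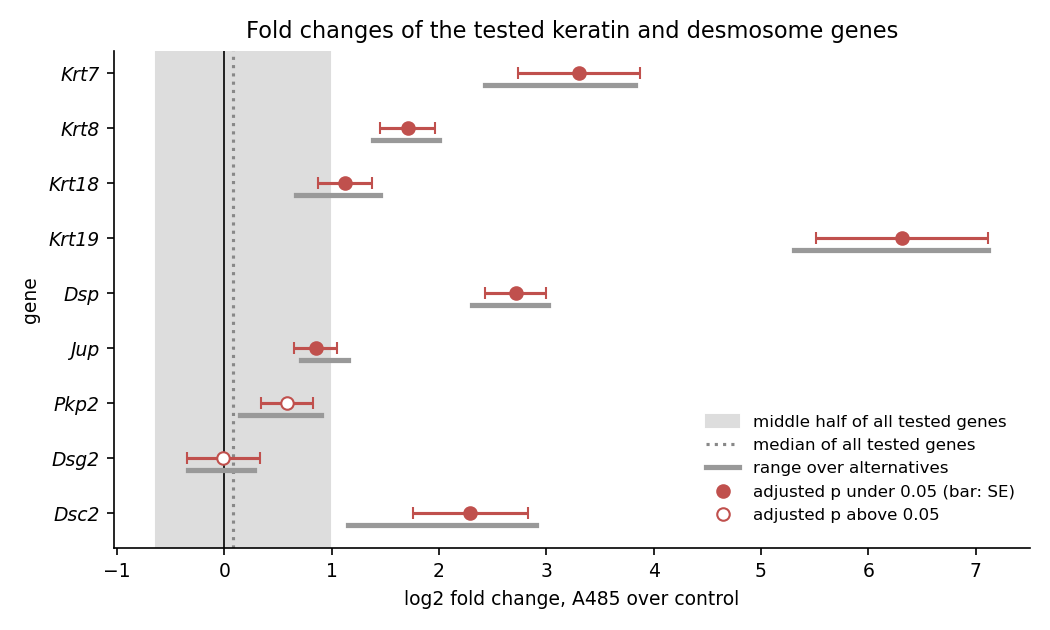
Log2 fold change of A485 over control for the 9 tested genes (points, filled where the edgeR adjusted p is under 0.05, with bars of 1 SE), the range over 19 alternatives (grey line under each point), and the median (dotted) and interquartile band (shaded) of all tested genes. Krt19 is at 6.31 and Dsg2 at -0.01, while the median of all tested genes is 0.09.

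The amounts of the keratin chains relative to one another were compared in TPM summed over genes. All 38 keratins in the table summed to 1046, 2109, 2584 and 2884 TPM in A485 libraries and to 634, 517, 766 and 604 TPM in control libraries. Krt7, Krt8, Krt18 and Krt19 made up 96.3 to 98.2% of that sum in A485 libraries and 97.4 to 98.2% in control libraries. Krt8 and Krt18 alone made up 88.9 to 94.5% of it with A485 and 96.4 to 97.5% in control embryos, and these ranges did not overlap. Krt19 formed 8.06, 2.45, 10.1 and 5.54% of the type I sum (Krt18 plus Krt19) in A485 libraries, against 0.167, 0.0516, 0.103 and 0.525% in control libraries. All 4 A485 libraries were above all controls. The difference was 6.34 percentage points, with an exact two-sided permutation p of 0.0286, the smallest that 70 assignments allow, and 0.0857 after adjustment over the 3 ratios tested. The ratio of type II (Krt7 plus Krt8) to type I TPM was 0.713, 1.02, 0.701 and 0.815 in A485 libraries and 0.541, 0.532, 0.462 and 0.739 in control libraries. On the log2 scale it averaged -0.32 ± 0.25 with A485 and -0.84 ± 0.29 in control embryos (SD, n = 4 each). A485 replicates 2 and 4 were above every control and replicates 1 and 3 were below control replicate 4, and the difference of 0.52 did not pass the test (exact two-sided permutation p = 0.0857, adjusted 0.129). Without control replicate 4 it was 0.65, with an unadjusted exact permutation p of 0.0286. Krt7 formed 2.45 to 8.34% of the type II sum in A485 libraries and 0.85 to 2.21% in control libraries.

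**Figure D3:**
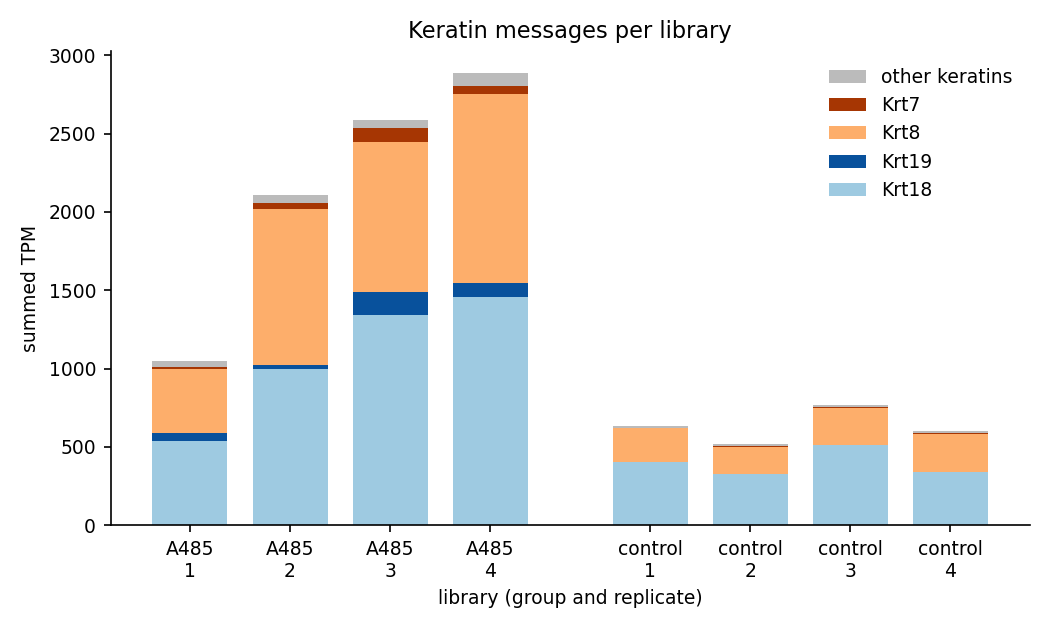
Summed TPM of keratin messages in each library, A485 libraries left of control libraries, stacked by Krt18, Krt19, Krt8, Krt7 and all other keratins. The bars reach 1046 to 2884 TPM in A485 libraries and 517 to 766 TPM in control libraries, and the Krt19 and Krt7 layers are visible mainly in A485 libraries.

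Of the plaque genes Dsp, Jup and Pkp2, Dsp had the largest fold change. Dsp, which links the plaque to keratin filaments, measured 28.8, 41.9, 47.0 and 69.96 CPM in A485 libraries and 8.41, 6.64, 5.21 and 8.30 CPM in control libraries. The lowest A485 library, replicate 1, was far above the highest control. Dsp rose 6.57-fold (log2 fold change 2.72 ± 0.28; edgeR adjusted p = 5.2e-05), the smallest adjusted p of the 9 genes. Jup, the armadillo protein that binds desmosomal cadherin tails and also occurs at adherens junctions, measured 70.3, 91.3, 104 and 83.9 CPM in A485 libraries and 58.7, 31.7, 50.7 and 52.8 CPM in control libraries. Its groups did not overlap, and control replicate 2 was the lowest library. Jup rose 1.80-fold (log2 fold change 0.85 ± 0.20; edgeR adjusted p = 0.00497). Pkp2, the plakophilin of simple epithelia and heart, measured 15.35, 19.6, 35.5 and 24.5 CPM in A485 libraries and 16.1, 14.5, 14.4 and 18.2 CPM in control libraries. A485 replicate 1 lay inside the control range and the other 3 above it. The Pkp2 log2 fold change of 0.59 ± 0.24 missed the threshold (edgeR adjusted p = 0.064), and without A485 replicate 1 it was 0.74 (adjusted p = 0.0144). Pkp2 also passed with total-count scaling (0.90, adjusted p = 0.0206) and with upper-quartile factors (0.68, adjusted p = 0.0403).

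The 3 desmosomal cadherins, whose genes share chromosome 18, were all low. Dsc2, the desmocollin of simple epithelia, measured 2.87, 6.99, 16.5 and 17.0 CPM in A485 libraries and 2.99, 1.13, 2.63 and 2.09 CPM in control libraries. A485 replicates 3 and 4 were the highest, and A485 replicate 1 was below control replicate 1, so the groups overlapped. Dsc2 rose by a log2 fold change of 2.29 ± 0.54 (edgeR adjusted p = 0.00499), and without A485 replicates 3 and 4 the value was 1.16 and no longer passed (adjusted p = 0.0504). Dsg2, the desmoglein of simple epithelia, measured 2.96, 4.90, 3.64 and 7.76 CPM in A485 libraries and 4.05, 3.34, 5.63 and 6.36 CPM in control libraries. The groups lay across each other, with a log2 fold change of -0.01 ± 0.34 (edgeR adjusted p = 0.985) whose sign depended on the scaling. Dsc3, a desmocollin of stratified epithelia, had 0, 5, 17 and 1 counts in A485 libraries and 0 in all 4 control libraries, where a total of 0 allows up to 0.0301 CPM. A485 replicate 3 held 17 of its 23 counts. With no filter on low counts Dsc3 had an adjusted p of 0.0495 in edgeR and 0.0773 in DESeq2.

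The desmosome genes as a group ranged from 32.8 to 73.5 summed TPM in A485 libraries and from 15.6 to 24.4 summed TPM in control libraries, and the ranges did not overlap. Jup gave most of it, 52.9 to 67.4% with A485 and 58.5 to 68.4% in control embryos. The log2 ratio of cadherin TPM (Dsg2, Dsc2 and Dsc3) to plaque TPM (Dsp, Jup and Pkp2) was -3.85 ± 0.71 with A485 and -4.03 ± 0.23 in control embryos (SD, n = 4 each). The exact two-sided permutation p was 0.657. The difference changed sign with 1 TPM added, with expected counts, and without A485 replicate 4 or A485 replicates 3 and 4. Within the cadherins, Dsc2 held 55.1 to 82.9% of TPM in A485 libraries and 29.5 to 48.4% in control libraries. In order of mean TPM the A485 group ran Krt18, Krt8, Krt19, Krt7, Jup, Pkp2, Dsp, Dsc2, Dsg2 and Dsc3, and the ranges of neighbours failed to overlap only between Krt8 and Krt19, between Jup and Pkp2 and between Dsg2 and Dsc3. The control group ran Krt18, Krt8, Jup, Pkp2, Krt7, Dsp, Dsg2, Krt19, Dsc2 and Dsc3, with overlap only between Pkp2 and Krt7 and along the run from Dsp to Dsc2. Krt19 stood at the third place with A485, at 77.3 ± 55.3 TPM, and at the eighth in control embryos, at 0.788 ± 0.694 TPM.

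A485 replicate 1 was the lowest A485 library for 8 of the 9 tested genes, Krt19 being the exception, where A485 replicate 2 was lowest. The highest was A485 replicate 3 for 4 genes and A485 replicate 4 for 5. Whether the place of A485 replicate 1 near the controls had a part in these spreads was not tested. The log2 profile of Krt8 over the 8 libraries, centred on its mean, lay close to those of Iqgap1 (Euclidean distance 0.476), Ckap5, Myo18a and Capn7 (0.531). Krt18 was at rank 331 from Krt8, and the other members were between rank 1182 (Jup) and rank 12705 (Krt19). For Dsp the nearest profiles were Ccni (0.617), Mlycd, Pou2f3, Hook3 and Fem1b (0.667), and the nearest member was Krt8, at rank 479. These distances are a description over 8 libraries that share 2 groups.

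The keratins lie in the type II cluster on chromosome 15 and the type I cluster on chromosome 11 (build GRCm38.p6). Krt7 spans chr15:101412403-101427806 on the plus strand, Krt8 chr15:101996711-102004342 on the minus strand and Krt18 chr15:102028216-102032026 on the plus strand, the type I gene that sits beside its type II partner. Krt8 and Krt18 are 23873 bp apart. Krt78, which is 86 bp from Krt8, averaged 0.03 TPM with A485 and 0.0375 TPM in control embryos, and Eif4b, 41746 bp beyond Krt18, fell (log2 fold change -1.15 ± 0.19; edgeR adjusted p = 0.000582). Krt87, 3683 bp from Krt7, fell too (log2 fold change -2.97 ± 0.71, and -3.74 without A485 replicate 4). Krt19 spans chr11:100140810-100145926 on the minus strand. Its neighbour Krt15, a keratin of basal epidermis 4860 bp away, had 8, 12, 42 and 88 counts in A485 libraries and 0 in all control libraries. Of 21 keratins on chromosome 11, 8 were tested, of which 4 rose (Krt14, Krt16, Krt19 and Krt25) and 3 fell (Krt10, Krt23 and Krt28). Of 17 on chromosome 15, 4 were tested, of which 3 rose (Krt7, Krt8 and Krt18) and 1 fell (Krt87). Jup lies on the same chromosome as Krt19, at chr11:100368856-100397839, Dsp at chr13:38151294-38198577 and Pkp2 at chr16:16213345-16272712.

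Promoter sequences are shown for the 5 genes that had a promoter entry, all of which rose, to let their start regions be compared. Each is the 250 bases before the start in RefSeq (GRCm38.p6), written 5′ to 3′ on the strand of the gene, with capitals for matches to 7 motifs searched on both strands. The motifs were the TATA box TATAAA, the CCAAT box CCAAT, the GC box GGGCGG, the AP-1 site TGANTCA, the TEAD site GGAATG, the AP-2 site GCCNNNGGC and the GATA site AGATAA. The windows are chr15:101412153-101412402 (plus) for Krt7, chr15:102004343-102004592 (minus) for Krt8, chr15:102027966-102028215 (plus) for Krt18, chr13:38151044-38151293 (plus) for Dsp and chr11:100397791-100398040 (minus) for Jup, whose listed start lies just inside the annotated gene span.
Krt7: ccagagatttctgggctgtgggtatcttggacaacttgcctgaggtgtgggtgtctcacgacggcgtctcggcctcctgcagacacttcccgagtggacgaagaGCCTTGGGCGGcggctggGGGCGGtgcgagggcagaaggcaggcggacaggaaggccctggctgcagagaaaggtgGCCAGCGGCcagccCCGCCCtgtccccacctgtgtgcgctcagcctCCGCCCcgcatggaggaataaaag
Krt8: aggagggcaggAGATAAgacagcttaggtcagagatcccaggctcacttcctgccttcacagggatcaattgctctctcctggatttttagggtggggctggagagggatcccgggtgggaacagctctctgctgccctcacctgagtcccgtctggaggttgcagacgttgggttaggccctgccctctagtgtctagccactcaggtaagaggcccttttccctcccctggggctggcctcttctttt
Krt18: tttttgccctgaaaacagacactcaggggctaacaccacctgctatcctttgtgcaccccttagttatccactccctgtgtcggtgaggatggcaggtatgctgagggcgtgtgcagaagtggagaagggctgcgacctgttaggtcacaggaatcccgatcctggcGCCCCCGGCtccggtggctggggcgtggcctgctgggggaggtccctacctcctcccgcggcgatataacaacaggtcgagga
Dsp: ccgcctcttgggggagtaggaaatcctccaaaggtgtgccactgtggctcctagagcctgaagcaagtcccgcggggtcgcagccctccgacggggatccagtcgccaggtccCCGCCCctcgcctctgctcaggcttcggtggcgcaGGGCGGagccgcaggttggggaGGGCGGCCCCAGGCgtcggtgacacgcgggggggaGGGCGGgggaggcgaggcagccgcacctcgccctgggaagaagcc
Jup: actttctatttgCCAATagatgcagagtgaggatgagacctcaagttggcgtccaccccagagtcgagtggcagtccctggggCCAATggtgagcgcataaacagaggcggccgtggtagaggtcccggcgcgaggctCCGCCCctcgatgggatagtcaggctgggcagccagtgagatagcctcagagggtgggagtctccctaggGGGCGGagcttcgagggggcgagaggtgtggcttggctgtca

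The GC box was present in Krt7, Dsp and Jup, 3 of the 5 windows, and in 32.7% of 32841 promoter windows of the same length. The AP-2 site was present in Krt7, Krt18 and Dsp, and in 13.7% of all windows. An AP-2 match shares bases with a GC box in Krt7 and in Dsp. The GATA site was present in Krt8 only (9.99% of all windows) and the CCAAT box in Jup only (33.9%). The letters of the TATA box (12.4%), the AP-1 site (6.75%) and the TEAD site (12.6%) were in none of the 5. CpG dinucleotides numbered 16 in Krt7, 3 in Krt8, 12 in Krt18, 22 in Dsp and 13 in Jup, and GC content was 66.0% in Krt7, 58.0% in Krt8, 60.4% in Krt18, 72.4% in Dsp and 62.0% in Jup. The adjacent pair Krt8 and Krt18, which both rose, shared no motif match among the 7.

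The rest of the keratin family was mostly at low levels. Of 34 other keratins in the table (20 of type I and 14 of type II), 27 averaged under 1 TPM in both groups, and 8 were tested. The 1 type II keratin among these was Krt87, which fell. Among the 7 other type I keratins tested, 3 rose (Krt14, Krt16 and Krt25) and 3 fell (Krt10, Krt23 and Krt28), with a median log2 fold change of 0.33. Krt16 and Krt25 averaged 0.0753 and 0.193 CPM in control libraries, and Krt28 averaged 0.0693 CPM in A485 libraries. These means are under the filter cutoff of 0.403 CPM. Each of these genes was tested mainly because of its higher group, so its direction is no separate support. With a library left out, more genes passed the filter. Then 5 of 9 rose without A485 replicate 1, 5 of 9 without control replicate 3 and 6 of 10 without control replicate 4. Krt14, the type I chain of basal epidermis, measured 35.9, 34.5, 32.5 and 82.2 CPM in A485 libraries and 1.63, 0.632, 2.63 and 3.20 CPM in control libraries. All A485 libraries stood above all controls (log2 fold change 4.51 ± 0.51; edgeR adjusted p = 0.000102). Some of its estimated counts are not whole, as occurs where reads fit more than 1 gene, and values of near-identical keratins such as Krt14 and Krt16 are uncertain for that reason. Krt5, the type II chain that pairs with Krt14 in epidermis, had 6, 17, 0 and 7 counts in A485 libraries and 0 in all 4 control libraries, so Krt14 rose where its usual partner was close to undetected. Krt17, a stress-induced keratin of skin, had 5, 206, 61 and 10 counts in A485 libraries and 0, 0, 0 and 1 counts in control libraries. Krt23 fell (log2 fold change -2.77 ± 0.36; edgeR adjusted p = 0.000167) and so did Krt28 (-3.28, and -4.62 without A485 replicate 3).

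The table held 12 markers of stratified epidermis, of which 5 were tested. Krt14, Krt16 and Sbsn rose (Krt14 and Krt16 are keratins themselves), Krt10 fell, and Krtdap did not pass the test. With more markers past the filter, 5 of 6 rose without A485 replicate 1, and 5 of 7 without control replicate 1 or 2. Krt10 did not pass without A485 replicate 4 or without control replicate 1, 2 or 4. The summed level was 38.8 to 299 TPM in A485 libraries and 12.3 to 17.0 TPM in control libraries. Krtdap reached 198 TPM in A485 replicate 3 and 1.25 TPM in A485 replicate 1. Of the defining genes, Krt14 had 4999 counts over the A485 libraries and 183 over the control libraries, and Krt5 had 30 and 0. The markers Trp63, Flg and Calml3 had 0 counts in every control library. They summed to 20, 38 and 12 counts over the A485 libraries. The part of such cells or messages in the keratin result was not tested. Of 15 markers of cumulus and granulosa cells 5 were tested, of which 3 rose (Inha, Inhbb and Kitl) and 1 fell (Hsd17b1). Inha, Inhbb and Kitl averaged 0, 0.266 and 0.217 CPM in control libraries, under the filter cutoff of 0.403 CPM. They were tested mainly because of their A485 libraries, so their rise is no separate support for a gain of these markers. Without A485 replicate 1 or 2 the count that rose was 2 of 5, and without control replicate 3 it was 2 of 6. Without A485 replicate 4 or control replicate 4, 4 of 6 rose. The Kitl call was lost without A485 replicate 1 or 2 or control replicate 1, 2 or 3. The Inhbb call was lost without control replicate 3. These markers summed to 20.1 to 35.9 TPM with A485 and 14.5 to 26.7 TPM in control embryos. Foxl2 had 18 counts over the A485 libraries and 1 count over the control libraries. Oocyte markers rose in 2 of 7 tested (Figla and Tle6), which is 28.6% against 29.7% of all tested genes, and fell in 0. The count that rose was 1 of 7 without A485 replicate 2. With 10 tested, 5 rose without control replicate 1 and 4 without control replicate 4. The Figla call was lost without A485 replicate 1 or 2 and without control replicate 2, 3 or 4 (edgeR adjusted p = 0.0654 to 0.134). Oocyte markers summed to 25.3 to 48.7 TPM with A485 and 18.9 to 31.1 TPM in control embryos.

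Trophectoderm markers, which belong to the epithelium that builds these filaments and junctions, summed to 162 to 284 TPM in A485 libraries and 224 to 259 TPM in control libraries. Of 13 tested, 4 rose (Eomes, Gata2, Hand1 and Ascl2) and 6 fell (Cdx2, Gata3, Tfap2c, Tead4, Fgfr2 and Tspan8). These were 30.8% and 46.2%, where 29.7% of all tested genes rose and 25.0% fell. Inner cell mass markers fell in 7 of 10 and rose in 0 (1 without A485 replicate 4), with sums of 339 to 478 TPM in A485 libraries and 937 to 1219 TPM in control libraries. Of 11 primitive endoderm markers tested 3 rose (5 of 12 without control replicate 1 or 4) and 3 fell. Their sums were 136 to 277 TPM with A485 and 98.5 to 130.3 TPM in control embryos. Krt7, Krt8, Krt18, Krt19, Dsp, Dsc2 and Jup rose in libraries where 6 of the trophectoderm markers fell and 4 rose. Whether these changes lay in the same cells was not measured.

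Related adhesion genes moved less evenly. Beside the counts that follow, 29.7% of all tested genes rose and 25.0% fell. Of 7 other desmosome genes tested, Pkp3, Ppl and Perp rose and Cdsn and Pkp4 fell, with a median log2 fold change of 0.22. The fallen genes numbered 1 without A485 replicate 1, 2 or 3 or control replicate 1 or 2, and 0 without control replicate 3 and with total-count scaling. Pkp3, a plakophilin found widely in epithelia, averaged 62.1 CPM with A485 and 3.29 CPM in control embryos (log2 fold change 4.24 ± 0.36; edgeR adjusted p = 2.17e-05). Its levels were 11.3 to 47.7 TPM in A485 libraries and 1.00 to 1.54 TPM in control libraries. Ppl, periplakin, a cytolinker of the plakin family, averaged 12.5 CPM with A485 and 0.955 CPM in control embryos (log2 fold change 3.71 ± 0.48; edgeR adjusted p = 0.000171). Perp, a membrane protein of desmosomes, had a log2 fold change of 0.45 ± 0.17 (edgeR adjusted p = 0.0391), and that call was lost without A485 replicate 3 or 4 and without control replicate 2, 3 or 4. The plakophilins thus differed, Pkp3 at 4.24, Pkp2 at 0.59 and Pkp4 at -0.72 in log2 fold change.

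Of 9 genes of cytolinkers and hemidesmosomes, the junctions that anchor keratin to the basement membrane, 6 rose and 0 fell, with a median log2 fold change of 0.89. Dst, a plakin, had 1.46 ± 0.23, the plakin Plec 1.10 ± 0.22 and the tetraspanin Cd151 0.89 ± 0.17. The count was 4 to 7 when 1 library was left out. Of 16 other intermediate filament genes 6 rose and 3 fell (median 0.43). Prph, peripherin of neurons, had a log2 fold change of 5.28 ± 0.46, Nefm 3.25 ± 0.61 (3.93 without control replicate 4), the nuclear lamin Lmna 1.18 ± 0.24 and Sync -2.66 ± 0.37. The fallen genes numbered 1 without A485 replicate 4, without control replicate 2 or without control replicate 4.

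Adherens junction genes rose in 4 of 12 (33.3%, against 29.7% of all tested genes) and fell in 0 (median 0.30). Ctnnb1, β-catenin, the close relative of Jup, had a log2 fold change of 0.94 ± 0.12 (edgeR adjusted p = 0.00018), Cdh3 1.57 ± 0.42 and Nectin3 2.19 ± 0.59. Afdn rose by 0.85 ± 0.26, a call lost without A485 replicate 4, control replicate 1 or control replicate 3. Cdh1, E-cadherin, the main adhesion protein of the compacting morula, did not pass (0.30 ± 0.20; edgeR adjusted p = 0.239). Tight junction genes rose in 5 of 16 and fell in 5 (31.2% each, median 0.02), near the 29.7% and 25.0% of all tested genes. Cldn3 had 3.99 ± 0.40, Patj 1.81 ± 0.23, Cldn6 1.05 ± 0.19 and Cldn7 -1.01 ± 0.16.

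**Figure D4:**
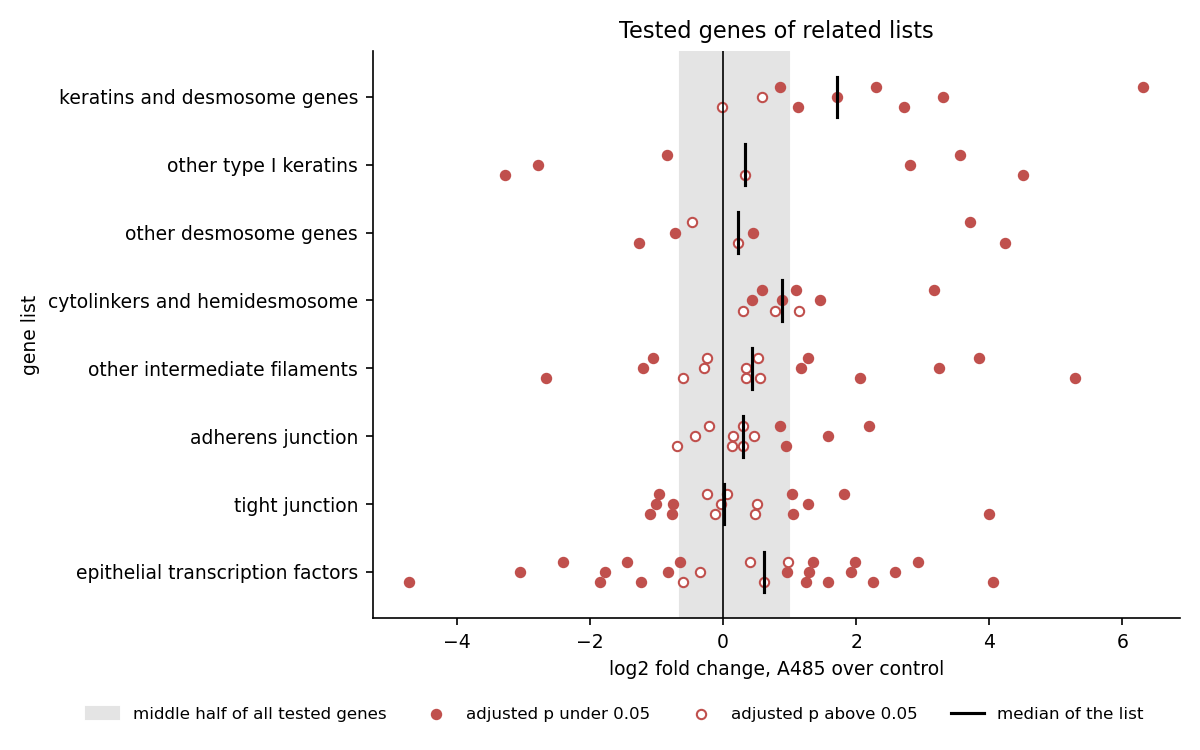
Log2 fold change of A485 over control for each tested gene of the keratin and desmosome set and of 7 related lists (1 point per gene, filled where the edgeR adjusted p is under 0.05), with a line at the median of each list and a shaded interquartile band of all tested genes. The cytolinker and adherens junction lists have 0 filled points below 0, and the tight junction list has 5 on each side.

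Among 25 transcription factors known in epithelia, 11 rose and 9 fell (median 0.62). Cdx2 had a log2 fold change of -4.71 ± 0.51, Elf3 -3.06 and Gata3 -2.40, and Gata2 had 4.05 (3.47 without A485 replicate 4). All 6 AP-1 genes of that list (Jun, Junb, Jund, Fos, Fosl1 and Fosl2) passed with a rise, with log2 fold changes of 0.96 for Jun to 2.93 for Junb; this group was singled out after its values were seen. Of 15 genes whose products modify or bind keratins and desmosomes, 7 rose and 4 fell (median 0.27). Casp6, a caspase that cuts keratins, fell by a log2 fold change of -2.05, and Sfn, the 14-3-3 protein of epithelia, by -1.65. Prkcd, a protein kinase C, had 2.79 and the sheddase Adam10 1.55.

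The authors' deposited table gave the same order of size for the genes that rose. Its log2 fold change of A485 over control was 6.28 for Krt19, 3.27 for Krt7, 2.68 for Dsp, 2.26 for Dsc2, 1.68 for Krt8, 1.09 for Krt18 and 0.82 for Jup, each with a q-value under 0.05, a mark that 24.3% of its genes with a q-value passed with a rise. In the authors' deposited table the q-value was 0.0795 for Pkp2, 0.0881 for Dsc3 and 0.945 for Dsg2. Those values come from the same 8 libraries and are no separate evidence.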

How the data were processed

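Per the submitters' processing notes, the tools were HISAT2 2.2.1, RSEM 1.2.28 and DESeq2 1.40.2, on GRCm38.p6; the sources used here do not say whether counting used strand. The authors deposited 1 table with an estimated count per gene and library (18.2% not whole), a TPM value, and their own log2 fold change and q-value. FPKM and normalized counts were not used.

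Expected counts were rounded, and edgeR 4.0.16 (R 4.3.3; filterByExpr, TMM, robust quasi-likelihood) compared the groups with no covariate. A gene was called at an adjusted p under 0.05 (Benjamini-Hochberg, 12936 genes). Krt16, Krt25, Inha, Inhbb, Kitl, Figla, Ascl2, Nefm and Nectin3 averaged under the filter cutoff of 0.403 CPM in control libraries. Krt28 and Krt87 averaged under it in A485 libraries. Each entered the test mainly through the group where it was higher, so its direction is no separate support. The SE of a log2 fold change is its size divided by the square root of F. Genes were compared with each other in TPM only. Ratios of TPM were tested by exact permutation over 70 assignments with numpy 2.4.6 in Python 3.11.15. The code was tested on simulated data. Sequences and coordinates are from RefSeq tables (GRCm38.p6). These held 18205 of the 18257 identifiers, and 5 of the 10 genes had a promoter entry.

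The genes and lists were chosen with earlier results of these data known. Named were every member, up to 4 called genes of smallest p per list, defining markers, and the 5 profiles nearest to Krt8 and Dsp (some genes this rule names are not reported here); other genes named (AP-1 genes, keratins with few counts, neighbours, marker genes) were chosen after their values were seen. Each pool is called a biological replicate in the labels; separate litters are not mentioned, so p-values measure the spread between these pools. No replicates agreed within sampling noise (chi-square per degree of freedom 18.8 to 199). The upper limit of a count of 0 is 3 counts over the group and covers counting error only. Alternatives were DESeq2 1.42.0, limma-voom (limma 3.58.1), other factors and filters, a replicate block and leaving libraries out; total-count scaling is among them.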

Additional observations from a re-analysis of the deposited data

How the results depend on the processing

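Over 19 alternatives, 6 to 8 of the keratin and desmosome genes rose and 0 fell, and leaving out 1 library gave 7 to 8. The share of all tested genes that rose ran from 22.4% with no filter to 38.1% with total-count scaling. Of the 10 genes, 8 were tested with the filter of 5 CPM and all 10 with no filter. The 8 that rose with no filter included Dsc3, which had 0 control counts. The total of called genes was 7077, with 6479 to 7685 when 1 library was left out and 8133 with DESeq2. Krt7, Krt8, Krt18, Krt19, Dsp and Jup kept direction and call in all 19. Without A485 replicates 3 and 4, Krt7 had a log2 fold change of 2.43 and Krt19 of 5.31. The Dsg2 value of -0.01 turned to 0.0794 with upper-quartile factors, 0.27 with total-count scaling, 0.11 with the filter of 5 CPM and 0.22 without A485 replicates 1 and 2, and lay between -0.34 and 0.16 when 1 library was left out, with 0.02 without control replicate 3, 0.11 without A485 replicate 3 and 0.13 without control replicate 4. Pkp2 passed in 5 alternatives. The ratio of type II to type I keratin was 0.40 to 0.65 when 1 library was left out, the highest without control replicate 4 (exact permutation p = 0.0286). The Krt19 share was 5.14 to 7.70 points when 1 library was left out (exact permutation p at most 0.0571), 7.63 without A485 replicates 1 and 2 and 5.04 without replicates 3 and 4, where no p below 0.0667 is possible. The cadherin to plaque difference was -0.13 with expected counts, -0.50 with 1 TPM added, -0.37 without A485 replicates 3 and 4, and -0.0825 to 0.47 when 1 library was left out; the cause was not tested. Replicate numbers do not pair the samples (correlations of deviations for equal numbers 0.0051 to 0.104); with a replicate block 6671 genes were called, and the Krt19 share difference stayed 6.34 (p = 0.125, the smallest that design allows). Dsc3, Krt5 and other genes of few counts are limited by depth.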
